A study of Mus musculus with 3 samples.

Results

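The genes of retinol uptake and metabolism were followed through the epithelium of the mouse small intestine. They are 9 of the 13891 genes in the table, chosen by name for their roles, with earlier results of these data known: Scarb1, Isx, Rbp2, Rbp7, Lrat, Adh1, Adh6a, Aldh1a1 and Rbp4. Their levels were read in 8 cell classes, which were stem cells, early, mid villus, duodenal, proximal, mature villus and ileal enterocytes, and enteroendocrine cells. The classes were named from marker genes outside the set, and the 9 genes and a wider retinoid list took no part in the clustering.

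The data are droplet single-cell RNA counts from 12653 cells in 3 libraries of male ICR mice that were 3 weeks old at the start. AOS 0 mice received vehicle by gavage for 2 weeks, B + A 0 mice received busulfan, an alkylating chemotherapy drug, at 40 mg/kg and vehicle, and B + A 10 mice received the same busulfan dose with 10 mg/kg of alginate oligosaccharides. Tissue of 6 mice was combined into each library, so differences between mice cannot be seen. Each condition has 1 library, so no test between conditions exists, and condition and library cannot be told apart. The source field of the labels calls the B + A 0 and B + A 10 libraries by other treatments than the treatment field and the titles do; the treatment field was used here.

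Depth differed between the libraries. AOS 0 held 4106 cells with a median of 7371 UMIs (unique molecular identifiers, 1 for each captured RNA molecule), B + A 0 held 3195 cells with 6407, and B + A 10 held 5352 cells with 3505. Between libraries, 82 cell barcodes were shared. Levels are given as UMIs per 10000 UMIs of the class, with 95% intervals that cover counting error only, and a range over libraries is the lowest and highest of the 3. Where 3 values follow each other they stand for AOS 0 first, then B + A 0, then B + A 10. UMIs were counted at the 3′ end of transcripts and are not scaled by length, so the pattern across classes is compared between genes and not the height.

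The class names held to different degrees. Of the marker lists, 18 of 18 enteroendocrine, 11 of 12 duodenal, 10 of 12 ileal, 10 of 12 stem and 9 of 12 mature villus genes were highest in their own class. The proximal list was highest there in 2 of 14 genes, and its summed level was 326 against 321 in mature villus enterocytes. The early list was highest in its own class in 5 of 10 genes and summed to 226 against 285 in mid villus cells, and the mid villus list summed to 34.3 against 33.1 in proximal cells. Proximal, mature and mid villus enterocytes, and early and mid villus ones, were thus not sharply separated by their markers.

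Dietary vitamin A reaches the gut as retinyl esters and carotenoids. In the enterocyte, retinol is held by a cellular retinol-binding protein, esterified by Lrat and packed into chylomicrons, while a smaller part is oxidised by alcohol dehydrogenases to retinaldehyde and by retinaldehyde dehydrogenases to retinoic acid, the ligand of the nuclear receptors Rar and Rxr. Isx is a homeobox factor of the intestine that is induced by retinoic acid and represses Scarb1, a scavenger receptor for lipids and carotenoids.

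The 9 genes lie on 6 chromosomes of the mouse genome, build mm10, in the GENCODE annotation. Rbp2 is at chr9:98486115-98509781 (+), Rbp7 at chr4:149449687-149454978 (-), and Rbp4 at chr19:38116629-38125281 (-). Adh1 at chr3:138260991-138290698 (+) and Adh6a at chr3:138313286-138331134 (+) are next to each other on the same strand, and Lrat is on the same chromosome at chr3:82892579-82903973 (-). Aldh1a1 is at chr19:20492715-20643465 (+), Isx at chr8:74873173-74893506 (+) and Scarb1 at chr5:125277087-125341094 (-).

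The 250 bases before the start site are shown for 3 genes because they carry the main contrast: Rbp2 and Adh6a were high along the proximal villus and low in the ileum, and Rbp7 was highest in early enterocytes, where both were lower than on the villus. The sequences are from the RefSeq promoter table, build GRCm38.p6 (mm10), on the strand of the gene, 5′ to 3′, at chr9:98490287-98490536 (+), chr3:138313036-138313285 (+) and chr4:149454969-149455218 (-). Capitals mark AGGTCA (a nuclear receptor half-site), TATAA and CAAAG on either strand.
Rbp2: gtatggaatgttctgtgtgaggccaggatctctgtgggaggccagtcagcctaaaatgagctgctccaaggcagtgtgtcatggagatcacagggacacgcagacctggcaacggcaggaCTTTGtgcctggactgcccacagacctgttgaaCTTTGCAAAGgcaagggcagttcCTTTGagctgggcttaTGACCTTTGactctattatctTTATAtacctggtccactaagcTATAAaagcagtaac
Adh6a: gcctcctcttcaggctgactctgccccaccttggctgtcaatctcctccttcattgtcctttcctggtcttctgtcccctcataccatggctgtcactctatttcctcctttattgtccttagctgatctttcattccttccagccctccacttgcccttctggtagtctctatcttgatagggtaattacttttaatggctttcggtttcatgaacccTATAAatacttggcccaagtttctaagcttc
Rbp7: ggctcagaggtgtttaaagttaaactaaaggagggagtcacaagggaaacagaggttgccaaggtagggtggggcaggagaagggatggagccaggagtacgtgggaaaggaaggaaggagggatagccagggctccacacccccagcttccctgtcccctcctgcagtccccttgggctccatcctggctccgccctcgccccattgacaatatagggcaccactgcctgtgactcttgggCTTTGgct
The Rbp2 window holds AGGTCA once, beginning 58 bases before the start and overlapping a CAAAG, with 5 matches to CAAAG and 2 to TATAA in all. The Adh6a window holds 1 TATAA, beginning 31 bases before the start, and the Rbp7 window holds 1 CAAAG. Among 32851 windows of the same length, 14.0% hold AGGTCA, 22.8% hold TATAA and 48.6% hold CAAAG. The Rbp2 window lies in an intron of longer annotated transcripts and covers no exon, the Adh6a window lies outside the gene, and the Rbp7 window reaches 10 bases into the first exon. These are letters in a window and not bound sites.

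Uptake was represented by Scarb1 and its regulator Isx. Scarb1 was sparse and concentrated in 2 classes. In duodenal enterocytes its level was 0.406, 0.475 and 0.444 in the 3 libraries, and in enteroendocrine cells it was 0.288, 0.363 and 0.354. These levels rest on 63 and 27 UMIs. The other 6 classes had pooled levels between 0.00444 in ileal and 0.0721 in proximal enterocytes, so the duodenal level was 6.13 times the proximal one (95% interval 3.91 to 9.81). The duodenal and enteroendocrine ranges over libraries did not overlap each other but their intervals did, 0.340 to 0.565 against 0.215 to 0.474.

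Isx was nearly level across enterocytes. Its pooled level lay between 0.547 in duodenal and 0.747 in mid villus enterocytes, with ileal cells at 0.725, early cells at 0.684, proximal cells at 0.682 and mature villus cells at 0.610. Each of these 6 classes overlapped its neighbour in the order over libraries. Stem cells, at 0.203 to 0.301 over libraries, and enteroendocrine cells, at 0.288 to 0.354, lay below every enterocyte class. The proximal to ileal ratio of Isx was 0.941 (0.810 to 1.09), and Paneth cells, a crypt type that makes antimicrobial peptides, had 0.0667.

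Rbp2 encodes cellular retinol-binding protein 2, the retinol carrier of the absorptive enterocyte. In proximal enterocytes its level was 202, 188 and 188. It ranked 4 among the 11821 genes detected in that class. Every one of the 957 proximal cells held an Rbp2 UMI, and across those cells the level had a median of 185, with a lower decile of 84.0 and an upper decile of 308.

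Rbp2 was higher on the villus outside the ileum than in stem cells and early enterocytes. The pooled level was 5.85 in stem cells, 25.2 in early, 79.9 in mid villus and 160.5 in mature villus enterocytes. Proximal enterocytes, a class named for its place along the gut, had 194. The early level was 4.32 times the stem level (4.14 to 4.50) and the mid villus level was 3.17 times the early one (3.11 to 3.23). Duodenal enterocytes had 169, 140.0 and 148 in the 3 libraries and mature villus enterocytes had 156, 169 and 159, so these 2 classes overlapped, while proximal cells were above both in each library.

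**Figure D1:**
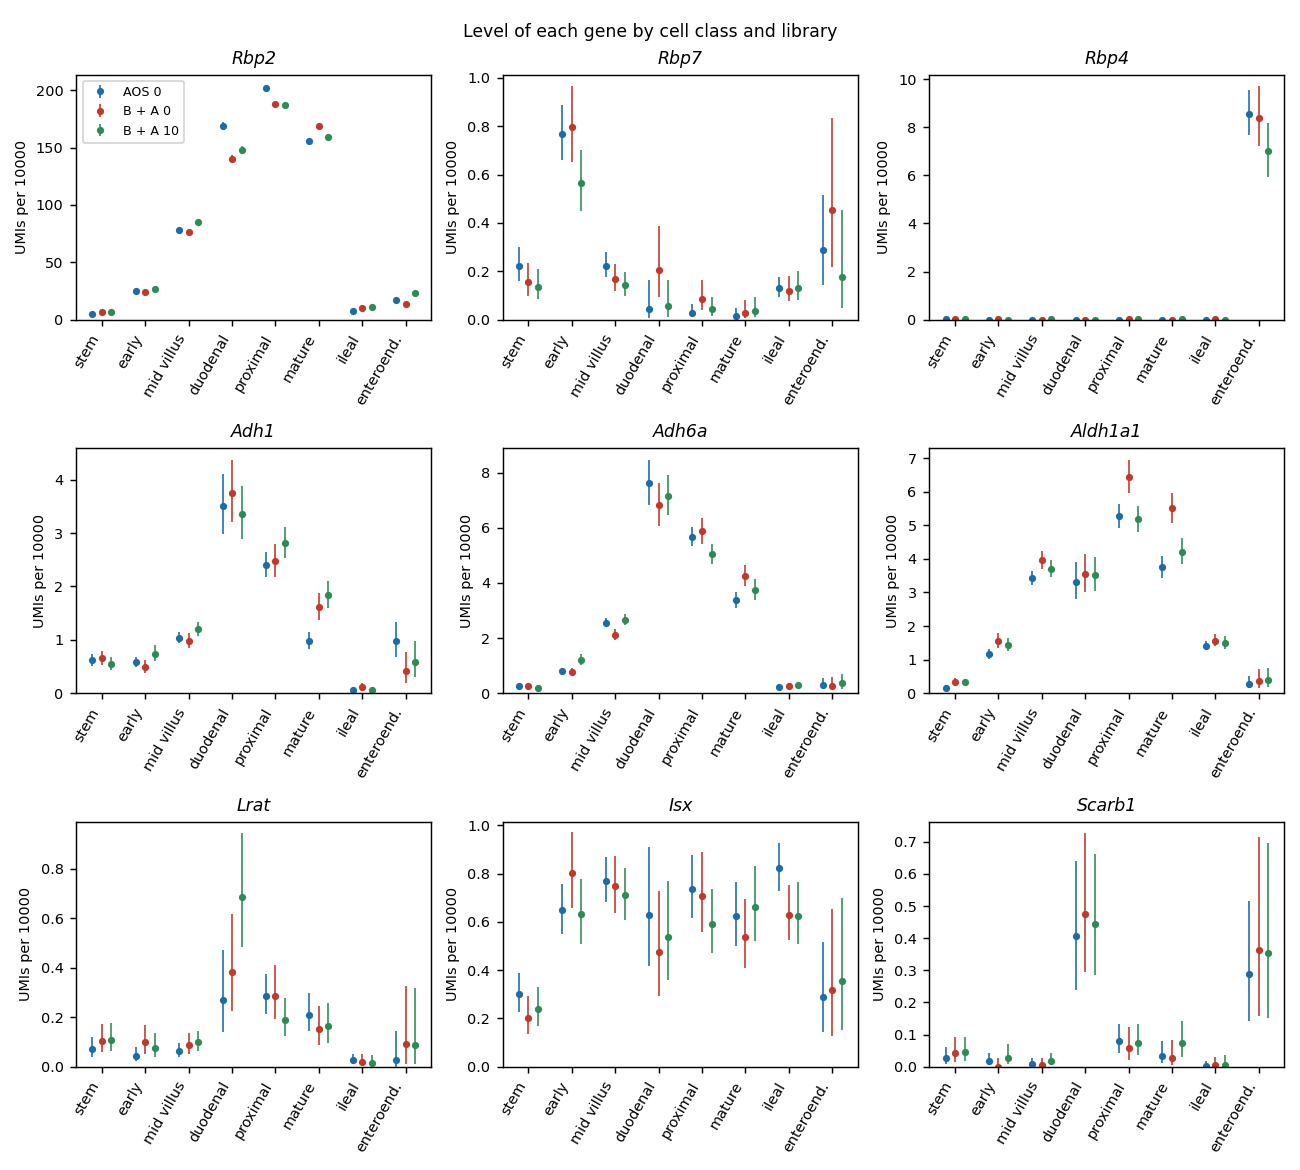
Level of each of the 9 genes (UMIs per 10000 UMIs of the class, linear axis from 0) in the 8 classes, with AOS 0 in blue, B + A 0 in red and B + A 10 in green and bars for 95% counting intervals. Rbp2 peaks in proximal enterocytes at 188 to 202, Rbp7 in early enterocytes at 0.564 to 0.797, and Rbp4 is near 0 outside enteroendocrine cells.

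Ileal enterocytes were the low end of Rbp2 among villus cells. Their level was 7.55, 10.4 and 10.9. Proximal cells exceeded them 21.2-fold over the pooled libraries (20.7 to 21.8), and 26.7-, 18.0- and 17.2-fold by library. Low values of Rbp2 have to be read against free RNA, because the gene is among the most abundant in the tissue. Paneth cells, which should lack it, had 3.71, 9.76 and 7.55, goblet cells had 11.2, 13.2 and 15.4, and T cells had 35.3, 34.1 and 38.5. The larger T cell cluster had 42.6 and the smaller one 10.4, and the goblet clusters lay between 5.78 and 32.8. The early enterocyte level of 25.2 lay below the T cell levels, and the part of free RNA in it was not tested. After every cell was thinned to 1000 UMIs, 99.9% of proximal cells held an Rbp2 UMI, against 51.2% of ileal, 43.4% of stem and 47.9% of Paneth cells. The unthinned shares were 100%, 95.6%, 91.0% and 98.6%, at median depths of 4045, 5986, 4952 and 17489.5 UMIs. By library, the thinned share was 38.1%, 49.5% and 43.8% in stem cells and 29.0%, 52.6% and 54.7% in Paneth cells. The stem share was thus the higher one in AOS 0 and the lower one in both busulfan libraries, and the low stem level is not read as expression.

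The ratio of Rbp2 to Fabp1 gave a second reading of the low classes. Fabp1, a fatty acid-binding protein, is another abundant enterocyte RNA. Per 100 Fabp1 UMIs, Rbp2 had 103 in stem, 101 in Paneth and 108 in goblet cells. Ileal enterocytes had 192, 180.4 and 156, and Paneth cells had 96.7, 106 and 91.0. Enteroendocrine cells were higher still, at 258, 186 and 212, and proximal enterocytes were lower, at 80.8, 78.1 and 73.6. The ileal and enteroendocrine ratios lay above those of stem, goblet and Paneth cells in all 3 libraries. The ratio was not the same in the other low classes, with 144, 115 and 109 in cycling crypt cells, and early enterocytes, at 136, 128 and 166, were above the ileal value in B + A 10. The part of free RNA in these levels was not tested.

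Rbp7 encodes another cellular retinol-binding protein, of the same family as Rbp2, and its pattern across classes was another one. Its level in early enterocytes was 0.768, 0.797 and 0.564, above the other 7 classes in each library. Mid villus enterocytes had 0.223, 0.168 and 0.143. The ratio of mid villus to early enterocytes was thus 0.256 for Rbp7 (0.210 to 0.310), where it was 3.17 for Rbp2. In proximal enterocytes 20 Rbp7 UMIs were left, a level of 0.0480, and in mature villus enterocytes 9.

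Rbp7 was also found in dividing crypt cells, outside the 8 classes. Cycling crypt cells held 51.5% of all 2129 Rbp7 UMIs in 18.9% of the cells. The clusters below are named by leading genes. The cluster led by mitotic genes such as Cdc20, Ube2c and Ccnb1 had 0.942, 1.05 and 0.793, above early enterocytes in each library. The cluster led by S-phase genes such as Lig1 and Dut had 0.387, 0.312 and 0.395. Lgr5-bearing stem cells were lower, at 0.223, 0.154 and 0.136. The stem and S-phase ranges did not overlap, and neither did the S-phase and mitotic ranges. After thinning, 6.96% of early enterocytes and 5.90% of cycling cells held an Rbp7 UMI, against 0.231% of Paneth cells. The unthinned shares were 31.5%, 29.2% and 6.02%.

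**Figure D2:**
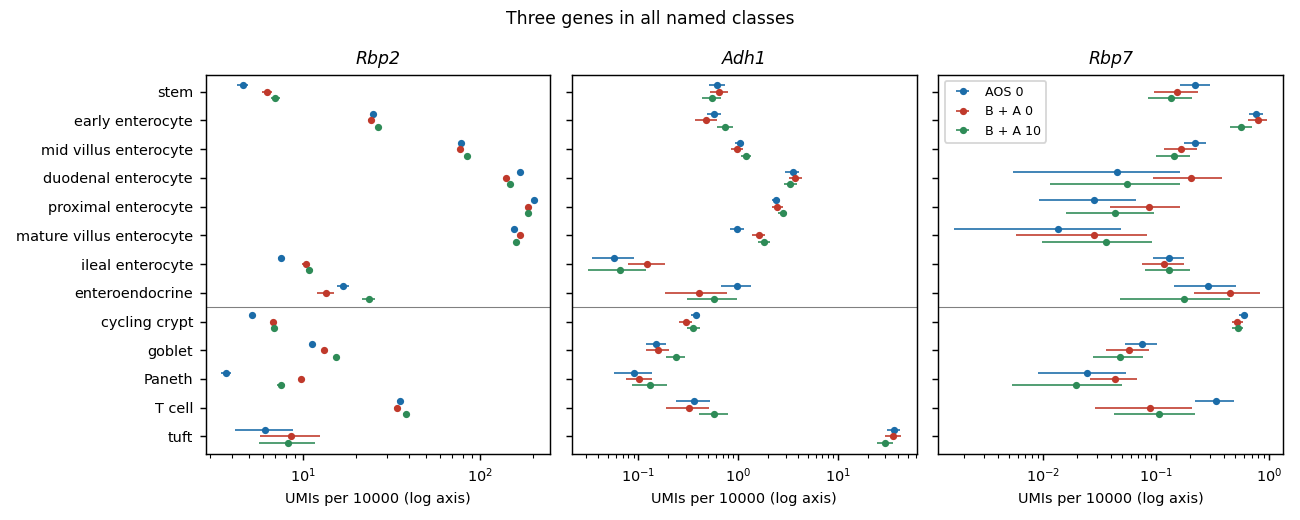
Levels of Rbp2, Adh1 and Rbp7 (UMIs per 10000, log axis) in the 8 classes above the grey line and in 5 other named classes below it, with points by library and bars for 95% counting intervals; libraries with no UMI are not drawn. Adh1 is near 34.2 in tuft cells against 3.53 in duodenal enterocytes, and Rbp7 in cycling crypt cells is close to its level in early enterocytes.

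Lrat, the acyltransferase that makes retinyl esters, was sparse. Its level in duodenal enterocytes was 0.270, 0.385 and 0.685, on 12, 17 and 37 UMIs. Proximal enterocytes had 0.286, 0.287 and 0.190 and mature villus enterocytes 0.210, 0.151 and 0.163. The duodenal and proximal ranges overlapped, and in AOS 0 the proximal level was the higher one. Ileal enterocytes had 0.0222 on 15 UMIs, and proximal cells exceeded them 11.5-fold (6.65 to 21.2).

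Oxidation of retinol was represented by 2 alcohol dehydrogenases and 1 aldehyde dehydrogenase. Adh6a was highest in duodenal enterocytes, at 7.62, 6.81 and 7.17. Proximal enterocytes had 5.67, 5.88 and 5.04, mature villus enterocytes 3.37, 4.25 and 3.75, and mid villus enterocytes 2.55, 2.12 and 2.67. None of these classes overlapped the next in the order over libraries. Early enterocytes had a pooled level of 0.909, and stem, ileal and enteroendocrine cells lay between 0.235 and 0.314. These 3 lay between Paneth cells, at 0.165, and goblet cells, the mucus-secreting type, at 0.338. Of the 435 goblet UMIs, 254 were in 1 of 3 goblet clusters, with a level of 0.951, and the other 2 clusters had 0.181 and 0.172. The duodenal to ileal ratio was 28.6 (24.3 to 33.9).

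Adh1 had the same order at the top. Duodenal enterocytes had 3.51, 3.76 and 3.35, proximal enterocytes 2.40, 2.47 and 2.81, and mature villus enterocytes 0.982, 1.61 and 1.83. It differed from Adh6a in the crypt, where stem cells had 0.606 against 0.601 in early enterocytes. The ratio of early to stem was 0.991 (0.843 to 1.17) for Adh1 and 3.87 (3.15 to 4.79) for Adh6a. By library these ratios were 0.938, 0.741 and 1.35 for Adh1, on both sides of 1. For Adh6a they were 3.04, 2.96 and 6.93. In ileal enterocytes Adh1 was at 0.0784, below 0.106 in Paneth cells, and the duodenal to ileal ratio was 45.0 (33.9 to 60.9).

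Tuft cells had more Adh1 than any other class. Tuft cells are chemosensory cells of the epithelium, and all 8 of their marker genes were highest in the cluster of 28 cells. The Adh1 level there was 36.5, 35.7 and 29.9, which is 9.70 times the duodenal level (8.49 to 11.1). All 28 cells held Adh1, with 1 to 31 UMIs each and 406 in all, and none was called a doublet. After thinning 89.3% of them kept an Adh1 UMI, against 25.7% of duodenal enterocytes. The neighbouring gene Adh6a had 6 UMIs in tuft cells, Aldh1a1 had 4, Lrat and Isx had 1 each, and Rbp7 and Scarb1 had none, which allows a level of up to 0.253 in each.

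Aldh1a1, which makes retinoic acid from retinaldehyde, was spread more evenly over the villus. Proximal enterocytes had 5.27, 6.45 and 5.18, and mature villus enterocytes had 3.74, 5.51 and 4.21. Mid villus enterocytes had a pooled level of 3.66 and duodenal enterocytes 3.46. Each of these 4 classes overlapped the next, although proximal cells were highest in each library. Unlike the alcohol dehydrogenases, Aldh1a1 was lower in duodenal than in proximal cells, by a ratio of 0.626 (0.567 to 0.690), and it kept a level of 1.48 in ileal enterocytes, 3.75-fold below the proximal level (3.48 to 4.04). Paneth cells had 0.244, and stem and enteroendocrine cells, at 0.267 and 0.338, were close to them.

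The plot of proximal against ileal levels sets the 9 genes among all genes. Of 7990 genes with at least 50 UMIs in both classes together, only 5 exceeded the log2 difference of 4.39 of Rbp2 (on levels plus 0.1). Adh6a came next with 6 genes above it, Adh1 had 3.89 with 7 above it, Aldh1a1 had 1.84 with 90 above it, and Lrat had 1.54 with 154 above it. This order depends on the added 0.1, which is above the ileal levels of Adh1 and Lrat. Without it the ratios were 32.6 for Adh1, 21.9 for Adh6a, 21.2 for Rbp2, 11.5 for Lrat and 3.75 for Aldh1a1. The median over the 7990 genes was 0.05. Isx at -0.08 and Rbp7 at -0.62 were not in the upper part, with 64.3% and 93.4% of the genes above them. Scarb1 and Rbp4 had too few UMIs in these 2 classes to enter. The 2 classes were found by clustering these same cells, so this is a description and not a test.

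**Figure D3:**
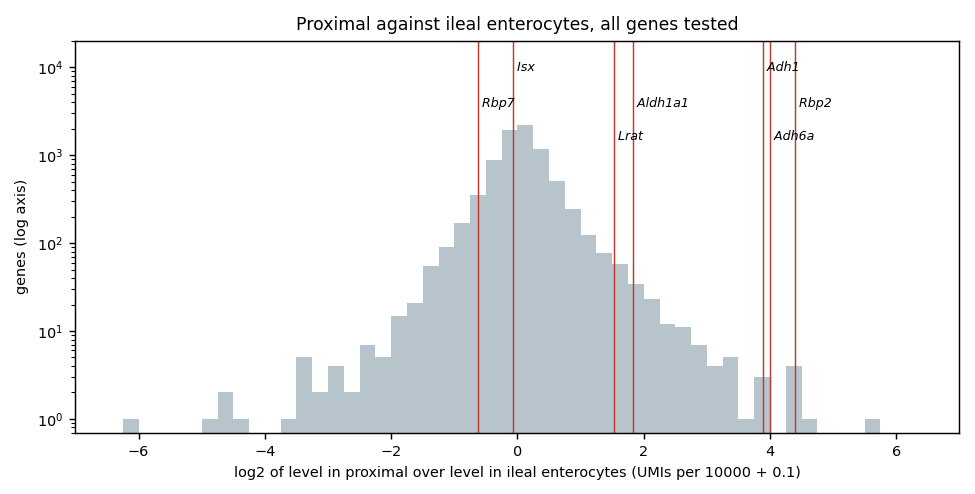
Number of genes (log axis) by log2 of the level in proximal over that in ileal enterocytes (UMIs per 10000 plus 0.1), for 7990 genes, with red lines at 7 of the 9 genes. Rbp2, Adh6a and Adh1 stand at 3.89 to 4.39, in the sparse right end, and Isx stands near 0.

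Rbp4, the secreted carrier that takes retinol into the blood from liver, was an enteroendocrine gene here. Its level in enteroendocrine cells was 8.56, 8.4 and 6.99. These 152 cells, 1.20% of all, held 670 of the 849 Rbp4 UMIs, or 78.9%. The 7 other classes had 27 UMIs together, with pooled levels of at most 0.0163, and duodenal enterocytes had none, which allows a level of up to 0.0210. After thinning, 33.6% of enteroendocrine cells held an Rbp4 UMI, against 0.926% of Paneth and 0.111% of stem cells. The unthinned shares were 56.6%, 11.8% and 0.891%.

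Rbp4 differed among enteroendocrine cells. When each cell was put under the hormone gene with most UMIs in it, Nts cells (neurotensin) had 18.2 (14.8 to 22.1) and 13 of 13 held Rbp4. By library they had 20.6, 11.8 and 26.0. Cck cells (cholecystokinin) had 16.5 together, but 17.6 and 24.95 in the first 2 libraries and 0.788 in B + A 10, where 5 cells held 2 UMIs. Gip cells (the incretin of the duodenal K cell) had 15.2, 9.85 and 8.30, and 37 of 41 held Rbp4. Sct cells (secretin) also differed between libraries, with 0.450, 3.58 and 9.57, and the 17 UMIs of B + A 0 were in 1 cell. Gcg cells (proglucagon), 10 in all, had 6.58 (4.41 to 9.45). Cells led by Ghrl (ghrelin) had 1.22 (0.525 to 2.39), with all 8 UMIs in B + A 10, and those led by Tac1, the mark of serotonin cells, had 1 UMI in 18 cells. The last group was also the deepest, with a median of 8290 UMIs per cell against 4456 over all enteroendocrine cells. The part of depth in these differences was not tested.

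Rbp2 was highest in Gip cells, which also held Rbp4, at 11.4 against 6.94 in the other enteroendocrine cells. The Rbp2 level of Gip cells was 42.1 (39.4 to 45.0), and all 41 held Rbp2, with 2 to 119 UMIs and a median of 17 per cell. The other 111 cells had 9.41 (8.66 to 10.2). Gip cells exceeded the others 5.40-fold in AOS 0, 6.05-fold in B + A 0 and 2.66-fold in B + A 10. The median number of Rbp2 UMIs per cell was 25, 18 and 14.5 in Gip cells and 3, 4 and 4 in the others. For Fabp1 the medians were 4, 4 and 3 against 2, 3 and 2, and its part in the Rbp2 difference was not tested. Of the 27 Scarb1 UMIs of enteroendocrine cells, 20 were in Gip cells.

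**Figure D4:**
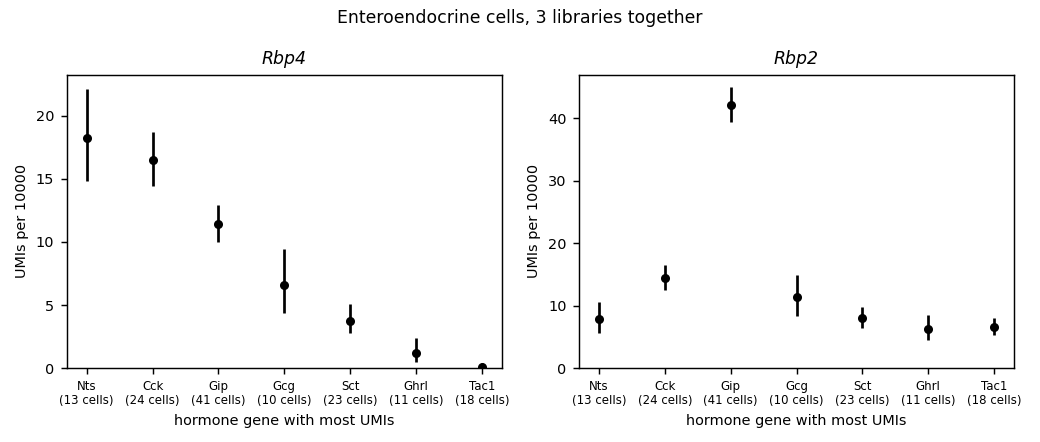
Level of Rbp4 and Rbp2 (UMIs per 10000, linear axis from 0) in enteroendocrine cells grouped by the hormone gene with most UMIs, 3 libraries together, with 95% counting intervals and the number of cells below each point. Over the 3 libraries together Rbp4 is highest in Nts and Cck cells at 18.2 and 16.5, though Cck cells had 0.788 in B + A 10, and Rbp2 stands out in Gip cells at 42.1.

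The libraries were then compared within each class, the question being whether busulfan, or alginate oligosaccharides after busulfan, went with another level of these genes. A pair of gene and class was counted where it had at least 50 UMIs in both libraries together, and was called at a ratio of 1.5 or more either way. From AOS 0 to B + A 0, 2 of 40 pairs were past 1.5-fold, both higher, or 5.0%, against 9.76% of all gene and class pairs (4.03% higher and 5.73% lower). From B + A 0 to B + A 10, 5 of 40 were past it, 4 higher and 1 lower, or 12.5%, against 7.99% (4.71% and 3.28%). From AOS 0 to B + A 10, 9 of 42 were past it, 4 higher and 5 lower, or 21.4%, against 12.7% (6.11% and 6.55%). The comparisons share libraries. With at least 200 UMIs the counts were 1, 2 and 3, and most pairs past 1.5-fold rested on low counts. Fewer pairs enter at that floor, and the share of all gene and class pairs is not given there. The lower counts are thus not set against a background.

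Aldh1a1 differed one way in the 7 classes with enough UMIs. Its ratio of B + A 0 to AOS 0 was above 1 in 7 of 7, from 1.07 in duodenal to 1.47 in mature villus enterocytes and 2.07 (1.30 to 3.33) in stem cells. Proximal enterocytes had 1.22 (1.11 to 1.35), mid villus 1.16 (1.06 to 1.27) and early 1.34 (1.12 to 1.61). Of 2226 genes with enough UMIs in these 7 classes, 6.65% were higher in all of them. The ratio of B + A 10 to B + A 0 was below 1 in 7 of 7, from 0.764 (0.675 to 0.865) in mature villus and 0.803 (0.721 to 0.893) in proximal enterocytes to 0.990 in duodenal ones, against 8.74% of 2368 genes. The B + A 0 library enters both ratios. Neither pattern held under every alternative. Taken as the mean over cells, 6 of 7 classes were higher in B + A 0 than in AOS 0, with ileal cells at 0.988. From B + A 0 to B + A 10, early enterocytes had 1.05 at cluster resolution 0.4 and 1.08 at resolution 1.5, and mid villus enterocytes had 1.01 with cells thinned to 1000 UMIs, so that 5 of 6, 6 of 7 and 6 of 7 classes were below 1. The duodenal ratio of B + A 0 to AOS 0 was 2.13 after thinning. In Paneth cells Aldh1a1 was 0.0660, 0.315 and 0.304, which moved with the stem levels of 0.166, 0.343 and 0.324, and its part in the stem ratio was not tested. The proximal and mature villus levels were far above the Paneth ones in each library.

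Rbp2 differed by less than 1.5-fold between libraries where it was high. The ratio of B + A 0 to AOS 0 was 0.931 in proximal (0.914 to 0.947), 1.08 in mature villus (1.06 to 1.10) and 0.829 in duodenal enterocytes (0.802 to 0.858). The ratio of B + A 10 to B + A 0 was 1.00, 0.945 and 1.06 in the same classes. It was larger where Rbp2 was low, with 1.38 in ileal and 1.38 in stem cells from AOS 0 to B + A 0, and 1.44 and 1.53 from AOS 0 to B + A 10, where the ileal ratio was 0.994 with clusters found without joining the libraries. Paneth and goblet cells, whose levels are given above, were also higher in both busulfan libraries than in AOS 0. T cells, also given above, were lower in B + A 0 and higher in B + A 10 than in AOS 0. The part of free RNA in these ratios was not tested.

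In enteroendocrine cells Rbp2 had a ratio of B + A 10 to B + A 0 of 1.75 (1.51 to 2.02). Split by hormone, a choice made after seeing the data, Gip cells had 0.955 (0.793 to 1.15) and the other cells 2.17 (1.73 to 2.74). In those other cells Fabp1 had a ratio of 2.16 (1.67 to 2.79), but 64 of its 171 UMIs in B + A 10 were in 1 Cck cell, which also held 39 of the 209 Rbp2 UMIs. Without that cell, left out after seeing the data, the ratio in the other cells was 1.39 (1.04 to 1.84) for Fabp1 and 1.81 (1.43 to 2.31) for Rbp2, and 1.65 (1.42 to 1.91) for Rbp2 over all enteroendocrine cells. The median per cell in the other cells was 4 Rbp2 UMIs in both libraries, at median depths of 6979 UMIs in B + A 0 and 3131.5 in B + A 10. Gip cells were 8 of 32 enteroendocrine cells in B + A 0 and 20 of 56 in B + A 10. Rbp4 in enteroendocrine cells had ratios of 0.981 (0.815 to 1.18) from AOS 0 to B + A 0 and 0.832 (0.669 to 1.03) from B + A 0 to B + A 10, and the first was 1.51 with cells thinned to 1000 UMIs.

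The alcohol dehydrogenases differed between libraries in mature villus and early enterocytes. Adh1 in mature villus enterocytes had a ratio of B + A 0 to AOS 0 of 1.64 (1.31 to 2.06) and of B + A 10 to AOS 0 of 1.87 (1.5 to 2.33). In that class 15.1% of all genes were past 1.5-fold from AOS 0 to B + A 0, more than in any other enterocyte class, and Adh6a and Aldh1a1 had 1.26 and 1.47 there. In duodenal enterocytes, where Adh1 was highest, the ratios were 1.07 (0.854 to 1.34) and 0.953 (0.765 to 1.19). Early enterocytes had ratios of B + A 10 to B + A 0 of 1.54 (1.12 to 2.14) for Adh1 and 1.58 (1.23 to 2.04) for Adh6a, and with cells thinned to 1000 UMIs the Adh1 ratio was 0.754.

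Lrat went 2 ways from B + A 0 to B + A 10. It had 1.78 (0.978 to 3.37) in duodenal and 0.660 (0.375 to 1.16) in proximal enterocytes, and both intervals hold 1. Rbp7 in early enterocytes had 0.708 (0.524 to 0.955) from B + A 0 to B + A 10. Isx had 0.764 (0.612 to 0.95) in ileal enterocytes from AOS 0 to B + A 0 and 0.759 (0.595 to 0.961) from AOS 0 to B + A 10, the second of which was 1.20 with cells thinned to 1000 UMIs. Scarb1 had fewer than 50 UMIs in every class for each pair of libraries, and a difference was not detectable at this depth.

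**Figure D5:**
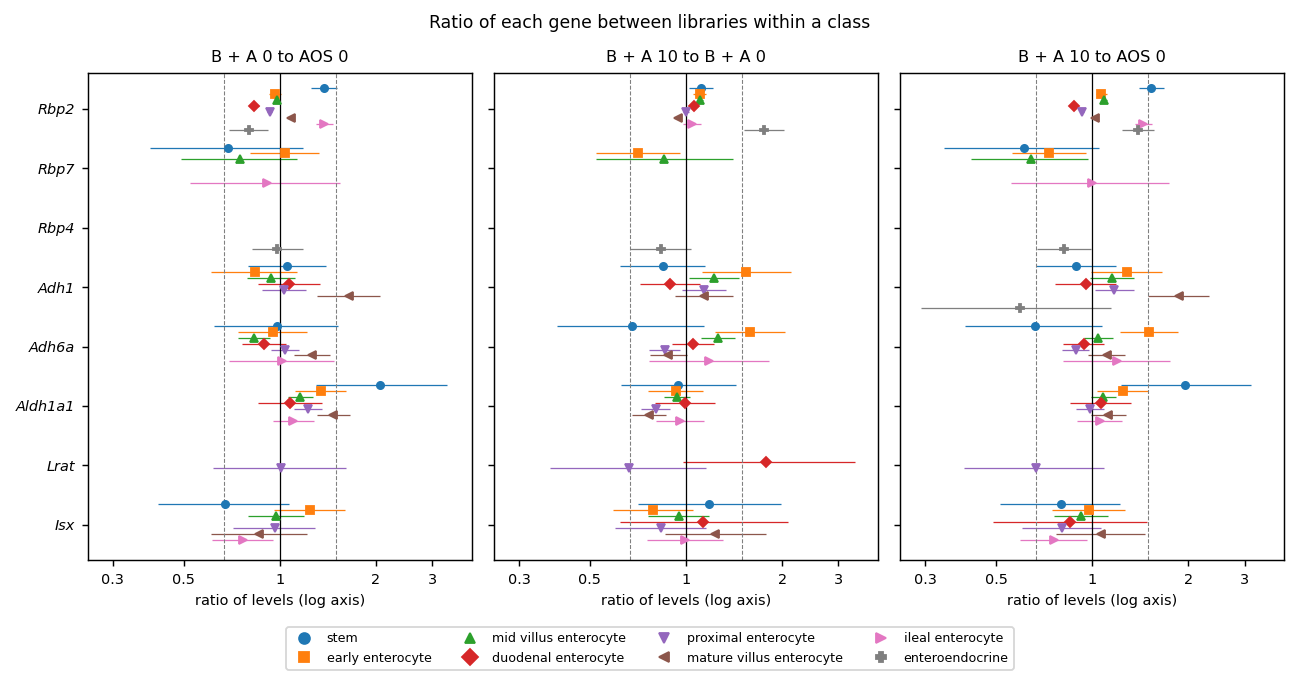
Ratio of levels between libraries (log axis) for each gene and class with at least 50 UMIs, symbols by class, bars for 95% counting intervals, dashed lines at 1.5-fold either way. Aldh1a1 lies right of 1 from AOS 0 to B + A 0 and left of 1 from B + A 0 to B + A 10 in all 7 classes drawn.

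A wider list of 64 retinoid genes, of which 54 were in the table, placed the 9 genes in their pathway. Of 47 list genes with at least 100 UMIs, 29 were highest in duodenal, proximal or mature villus enterocytes, against 29.0% of all 10805 genes. Ester and chylomicron genes had 8 of 10 there, led by Mttp, the transfer protein that loads lipid onto apolipoprotein B, with 20.2 in proximal and 4.53 in ileal enterocytes, and Dgat1, an acyltransferase, with 7.88 in mature villus and 4.15 in ileal enterocytes. Uptake genes had 6 of 8, led by Npc1l1 (cholesterol uptake) with 4.89 and Abcg5 (sterol export) with 1.45 in mature villus enterocytes.

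The dehydrogenases were mixed. Of 15 with enough UMIs, 9 were highest in the same 3 classes. Dhrs11, with most UMIs, was highest in ileal enterocytes at 3.31 against 2.94 in proximal ones, and Dhrs1 followed the Adh6a pattern with 3.84 in duodenal, 3.51 in proximal and 0.359 in ileal enterocytes. In the group of retinaldehyde dehydrogenases and breakdown enzymes, Cyp2s1 was between 0.289 and 0.386 from mid villus on, and Aldh1a7 had 110 UMIs in all. Among binding proteins, 3 of 3 were highest in enteroendocrine cells, against 23.8% of all genes. Fabp5, a carrier that can bring retinoic acid to the nucleus, had 20.3 there and at most 0.335 in the other 7 classes, and Ttr, the blood partner of Rbp4, had 1.16.

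The nuclear receptors and regulators differed among themselves. Hnf4a, a regulator of enterocyte genes, lay between 1.35 and 2.17 in the 8 classes. Cdx1, a caudal homeobox factor of the intestine that responds to retinoic acid, was highest in stem cells at 1.81. It was lowest in mature villus enterocytes at 0.349. Between libraries, 8.74%, 8.81% and 10.6% of the list's gene and class pairs were past 1.5-fold in the 3 comparisons in the order above, near the shares of all genes. Cdx1 was lower in B + A 0 than in AOS 0 by that margin in 3 of 7 classes, with 1.24 and 0.812 in early and 1.24 and 0.822 in ileal enterocytes. Its relative Cdx2 was lower in B + A 10 than in AOS 0 in 4 of 8, with 1.40 and 0.874 in stem cells and 1.67 and 1.05 in ileal enterocytes. Cdx1 was past that margin in 0 classes from AOS 0 to B + A 10, and Cdx2 in 1 class from AOS 0 to B + A 0. No other gene of the list had 3 such classes in 1 direction. The share of all genes with 3 such classes is not given, so these counts are not read as particular to Cdx1 and Cdx2.

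Likeness of pattern was measured as Pearson's r of log2 levels over the 19 clusters, against 6520 genes with at least 1000 UMIs. It is a description, since the clusters share libraries and depth. Rbp2 was most like Creb3l3 (0.985), Fabp1 (0.972) and Slc25a45 (0.969), and Adh6a most like Nr1i3 (0.980), Cdr2 (0.978) and Fabp1 (0.976). Aldh1a1 followed Khk (0.996), Mttp (0.992) and Ppargc1a (0.987), and Rbp4 followed the hormone genes Gip (0.982), Gcg (0.961) and Cck (0.957). These hormones are markers of the 1 enteroendocrine cluster, which held 78.9% of the Rbp4 UMIs. The r values therefore rest on that cluster and cannot rank the hormones.

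The weaker matches belonged to Lrat, Isx, Rbp7, Scarb1 and Adh1. Lrat was most like Ap1s3 (0.940), Zfp410 (0.919) and Capn15 (0.917), and Isx most like Tmem41b (0.951), Yif1a (0.95) and Wasl (0.937). Rbp7 reached 0.855 with Usp10 and 0.853 with both Pofut1 and Bop1, and Scarb1 reached 0.746 with Aff4, 0.728 with Ahcyl1 and 0.727 with S100g. Adh1 was most like Svil (0.931), Bpgm (0.901) and Nit1 (0.880), and without the tuft cluster, left out after seeing the data, most like Ckb (0.953), Scoc (0.941) and Pgrmc2 (0.936). Among the 9 genes, Rbp2 had 0.963 with Adh6a and 0.917 with Aldh1a1, 0.436 with Adh1, and -0.148 with Rbp7.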

How the data were processed

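In all, 3 libraries of droplet single-cell RNA-seq were used, 1 per condition. Reads were aligned to mm10 with Cell Ranger 2.2.0, per the submitters' processing notes and the study's methods. The deposited table holds, for 13891 genes and 12653 cells, values that the authors scaled to 10000 UMIs per cell and put on a natural log scale after adding 1. Whole UMIs were recovered from it: 100% of 24333763 values above 0 came within 0.01 of a whole number. Per the study's methods, cells under 200 genes and genes in fewer than 3 cells had been left out.

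Libraries were joined and clustered in Seurat 5.3.0 (2000 variable genes, 20 dimensions, resolution 0.8) without the 9 genes and the wider list. Each of 19 clusters took the marker list with the highest mean score, if at least 2 of its 10 leading genes were on it. Of the cells, 707 stayed unnamed. No doublets were removed: Scrublet called 18 by its own threshold, and leaving out the top 5% of scores, 579 cells, is an alternative. UMIs were summed per class and library, with exact Poisson intervals for levels, exact binomial (Clopper-Pearson) intervals for shares and ratios, and 3 counts as the limit behind a count of 0. The scripts were tested on simulated data.

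All members were described in every class. From the wider list, the 2 genes with most UMIs in each group were named, and any gene past 1.5-fold the same way in at least 3 classes. For likeness, 3 genes per member were named. Groups by leading hormone and the Paneth, goblet and Fabp1 values were added after seeing the data. The members and lists were chosen with earlier results of these data known. With 1 library per condition, no p-value was computed.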

Additional observations from a re-analysis of the deposited data

Results flagged for a closer look

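Adh1 in tuft cells lies outside the 8 classes compared, and was far above them. Its level over the 28 tuft cells was 34.2 UMIs per 10000 (95% counting interval 31.0 to 37.7), against 3.53 in duodenal enterocytes, the highest of the 8 classes, and 0.106 in Paneth cells. The 3 libraries gave 36.5, 35.7 and 29.9, on 9, 6 and 13 cells. Every cell held at least 1 Adh1 UMI. The class is small, and its cells come from 3 libraries without replicates.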

How the results depend on the processing

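The class with the highest level was the same in 8 of 8 alternatives for Rbp2, Rbp7, Rbp4, Adh1, Adh6a, Aldh1a1 and Lrat, in 7 of 8 for Scarb1 (enteroendocrine cells after thinning) and in 6 of 8 for Isx. For Rbp2 and Aldh1a1 the next class was mature villus enterocytes, which were not found at resolution 0.4 or without joining. Those settings could not set proximal against mature villus cells. The counts past 1.5-fold, given as 2, 5 and 9 for B + A 0 to AOS 0, B + A 10 to B + A 0 and B + A 10 to AOS 0, became 1, 2 and 3 with at least 200 UMIs and 1, 0 and 0 at 2-fold. Shares over all genes are not given at these settings. Without joining the libraries, B + A 10 to B + A 0 gave 2, and without called doublets B + A 0 to AOS 0 gave 4. Of the 16 ratios past 1.5-fold, the direction turned for 4 under at least 1 alternative: Rbp7 in stem cells from AOS 0 to B + A 10 was 1.14 without joining, Adh6a in stem cells from AOS 0 to B + A 10 was 1.17 at resolution 0.4, 1.01 at resolution 1.5 and 1.24 thinned to 1000 UMIs, Adh1 in early enterocytes from B + A 0 to B + A 10 was 0.754 thinned, and Rbp2 in enteroendocrine cells from B + A 0 to B + A 10 was 0.955 in Gip cells alone. Of the 106 ratios within 1.5-fold, 52 turned under at least 1 alternative. The causes were not tested. No mature villus class was found at resolution 0.4 or without joining, so its values could not be given there. No paired analysis was possible because each condition has 1 library. Depth limits Scarb1, Lrat and the low classes of Rbp7.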
